A study of Mus musculus with 3 samples.

Results

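Interferon-stimulated genes are genes whose transcription is switched on by interferons, and 44 of them, named by symbol, were followed here among the 21983 genes counted in mouse intestine. All 44 symbols were in the table. They were divided by the interferon that is best known to drive them: 35 type I members (the Ifit, Oas and Mx families and their relatives) and 9 interferon-gamma members (Irf1, Psmb8, Psmb9, Tap1, Gbp2, Gbp3, Igtp, Irgm1 and Iigp1). The division is one of emphasis, since many of these genes answer to both.

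The intestine came from wild-type mouse pups in 3 groups, with 1 library each. The PCI34051+NEC pups were given PCI34051, an inhibitor selective for the deacetylase HDAC8, by mouth at 10 mg/kg per day for 5 days, and were put through a model of NEC (necrotizing enterocolitis, in which the bowel of newborns becomes inflamed and dies). It consisted of gavage with 40 µl of 33% formula at 4 h intervals for 96 h, with hypoxia for 100 s in 99.9% nitrogen, followed by 10 min of cold (4 °C), at 12 h intervals. The NEC pups went through the same model and received PBS. The control pups stayed with the dam, received PBS and had neither hypoxia nor cold. Formula, hypoxia, cold and any disease therefore differ together between the NEC and control libraries and cannot be told apart, and neither the number of pups behind a library nor their age, strain or sex is stated in the labels. The column of the PCI34051+NEC library does not match its label letter for letter and was assigned as the only column that names an inhibitor.

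The libraries held 16497580 (PCI34051+NEC), 10650638 (NEC) and 15076413 (control) counts. Levels are TMM-normalised CPM (counts scaled to a common library size). A gene with 0 counts stays at 0 CPM in levels, log2 differences and calls. For fold ratios and in figures it is set at a floor of 3 counts. In the PCI34051+NEC, NEC and control libraries this corresponds to 0.197, 0.274 and 0.189 CPM. Differences are given as log2 of CPM plus 1, which understates those of low genes. Fold ratios are plain ratios of CPM with 95% exact binomial intervals, and these cover counting error only. A gene was called at a 2-fold difference on this log2 scale, provided that any of the libraries compared reached 1 CPM. Without replicates there is no test, and every value describes 3 libraries. The NEC library stood apart from the others in several ways: the mitochondrially encoded genes took 3.73% (PCI34051+NEC), 32.4% (NEC) and 4.88% (control) of the counts, and the Y-linked gene Eif2s3y had 1134, 0 and 999 counts in that order. The epithelial markers Epcam (2797, 404 and 2731 CPM in the PCI34051+NEC, NEC and control libraries) and Vil1 (983, 492 and 1015 CPM) were present in all 3, as the tissue label requires.

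Interferons act through receptors that activate JAK kinases and STAT proteins. Type I interferons (alpha and beta) and type III interferons (lambda, to which gut epithelium is particularly responsive) activate a transcription complex that contains STAT2 and IRF9 and binds the interferon-stimulated response element (ISRE). Interferon gamma acts mainly through another DNA element, the gamma-activated site (GAS). In the healthy gut a low tonic interferon tone, maintained in part by the microbiota, keeps many of these genes expressed without infection.

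Promoter sequences were looked up in RefSeq (GRCm38.p6), where 33 of the 44 members had an entry. The 250 bases before the start were searched on both strands for the core letters of the ISRE (GAAA, any 2 bases, GAAA) and of the GAS (TTC, any 3 bases, GAA), and matches that overlap were each counted. The ISRE letters stood in front of 14 of 33 members (42.4%), against 3.46% of all 27025 genes searched. They were in 10 of 25 type I members (40.0%) and in 4 of 8 interferon-gamma members, so that the division by interferon did not separate them. The GAS letters were in 7 of 33 members (21.2%), against 8.13% of all genes, with 4 of 25 type I members and 3 of 8 interferon-gamma members. A match describes the letters and is not a binding site. The bases before the start of 8 members are printed 5′ to 3′ on the gene's own strand, with the matched letters in capitals, to show how the elements are arranged in genes that behaved differently in these libraries. Isg15 has 3 overlapping ISRE matches between 78 and 57 bases before its start. Ifit1, Rsad2 and Ddx60 were called higher in the PCI34051+NEC than in the NEC library, whereas Oas1a and Bst2 were not. Isg15 was not called either, but it had only 16 and 5 counts. Its ratio of 2.30 had an interval of 0.806 to 8.03, so that a difference was not detectable. Igtp carries both elements and was lowest in the PCI34051+NEC library, and Irf1 carries the GAS letters alone. An ISRE match on the opposite strand, as in Ifit1 and Rsad2, reads TTTC, any 2 bases, TTTC.
Isg15 (chr4:156200819-156200978, minus strand): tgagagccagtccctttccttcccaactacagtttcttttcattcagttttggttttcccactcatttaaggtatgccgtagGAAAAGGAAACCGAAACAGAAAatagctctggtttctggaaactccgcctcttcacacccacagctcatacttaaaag
Ifit1 (chr19:34640729-34640870, plus strand): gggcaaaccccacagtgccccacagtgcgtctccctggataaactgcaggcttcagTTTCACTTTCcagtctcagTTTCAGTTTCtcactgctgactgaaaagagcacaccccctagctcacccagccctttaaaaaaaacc
Rsad2 (chr12:26456453-26456612, minus strand): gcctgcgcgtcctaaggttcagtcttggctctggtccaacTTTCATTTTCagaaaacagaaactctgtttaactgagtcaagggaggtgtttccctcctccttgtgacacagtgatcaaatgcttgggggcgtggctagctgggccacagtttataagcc
Ddx60 (chr8:61927927-61928086, plus strand): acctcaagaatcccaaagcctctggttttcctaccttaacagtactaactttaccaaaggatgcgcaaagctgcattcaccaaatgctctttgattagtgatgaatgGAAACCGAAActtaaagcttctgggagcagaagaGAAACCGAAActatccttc
Oas1a (chr5:120907526-120907685, minus strand): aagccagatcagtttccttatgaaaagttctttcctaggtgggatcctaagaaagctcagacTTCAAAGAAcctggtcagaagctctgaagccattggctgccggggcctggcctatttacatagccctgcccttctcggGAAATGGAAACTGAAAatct
Bst2 (chr8:71537473-71537632, minus strand): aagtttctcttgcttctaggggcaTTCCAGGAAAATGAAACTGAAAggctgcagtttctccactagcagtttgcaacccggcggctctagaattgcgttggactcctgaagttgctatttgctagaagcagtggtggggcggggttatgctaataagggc
Igtp (chr11:58199396-58199555, plus strand): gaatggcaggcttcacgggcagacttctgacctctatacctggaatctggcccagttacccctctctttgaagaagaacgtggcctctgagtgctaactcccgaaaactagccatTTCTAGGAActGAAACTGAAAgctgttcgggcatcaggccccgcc
Irf1 (chr11:53769854-53770013, plus strand): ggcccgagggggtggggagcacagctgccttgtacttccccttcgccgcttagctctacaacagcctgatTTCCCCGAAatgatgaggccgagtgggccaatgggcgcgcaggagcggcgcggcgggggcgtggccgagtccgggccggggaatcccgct

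Type I interferon-stimulated genes were low in the NEC library and intermediate or low in the PCI34051+NEC library. The 35 type I members summed to 738 CPM in the PCI34051+NEC, 441 CPM in the NEC and 2431 CPM in the control library. The 9 interferon-gamma members summed to 107.9, 108.2 and 254 CPM. A control library of unchallenged, dam-fed pups thus had the highest level of 42 of the 44 members (95.5%), a place that the control library took for 27.2% of all genes at 1 CPM or more. The exceptions were Trim25, highest in the PCI34051+NEC library, and Irgm1, highest in the NEC library. The latter was 1.25-fold above control there, with an interval of 0.871 to 1.78 that spans 1. At 10 CPM or more were 20 members in the PCI34051+NEC, 10 in the NEC and 34 in the control library.

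**Figure D1:**
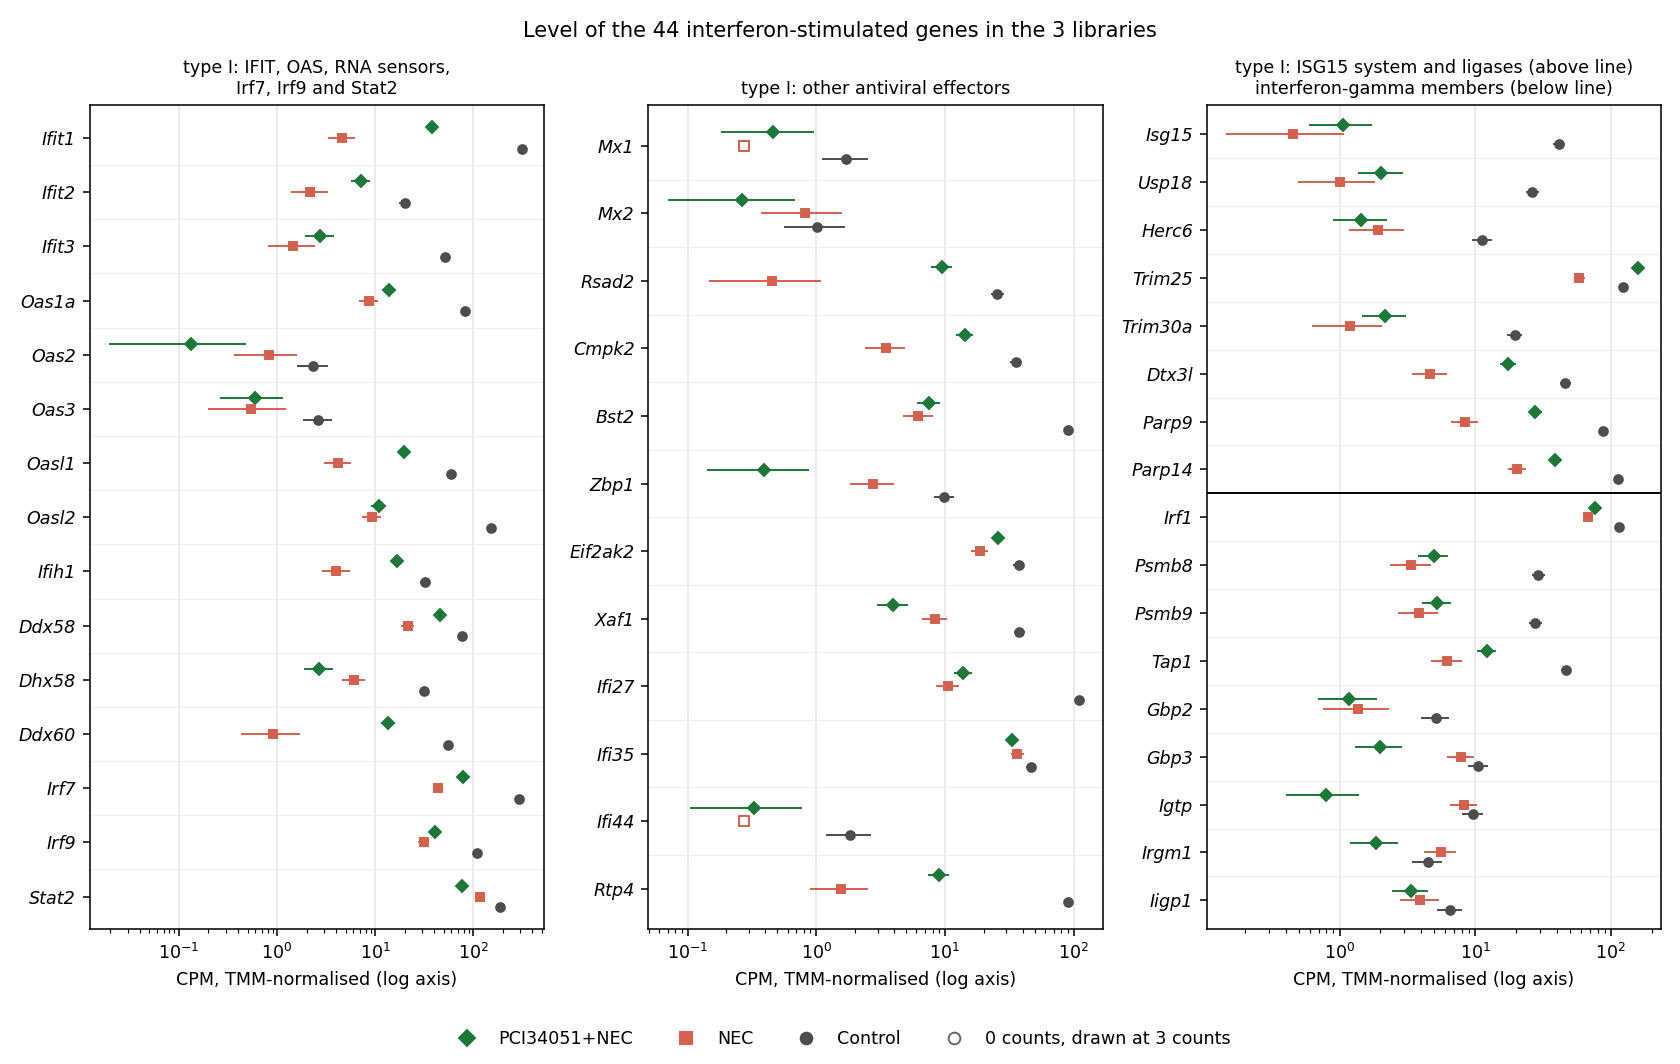
Level of each of the 44 members (CPM, log axis) in the PCI34051+NEC (diamonds), NEC (squares) and control (circles) libraries, 1 library each, with bars for the 95% Poisson counting interval and open symbols for 0 counts drawn at the floor. The control library is highest for 42 of 44 members, and the 2 other libraries change places between genes such as Ddx60 and Igtp.

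The comparison of NEC with control asks how the model differs from dam-fed intestine. Lower by 2-fold or more in the NEC library were 34 of the 44 members, and 0 were higher, where 22.9% of all 14627 measured genes were lower and 24.2% higher. The median log2 difference was -2.49, beside -0.03 for all genes. Among type I members 30 of 35 were lower, with a median of -2.73, and among interferon-gamma members 4 of 9, with a median of -0.74. For 33 members the counting interval of the ratio lay wholly beyond 2-fold lower, as it did for 18.3% of all genes. With scaling factors computed without the mitochondrially encoded and the 50 most abundant genes, 36 members were lower, and the part of the NEC library's mitochondrial share in single values was not tested.

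IFIT proteins bind foreign RNA and block its translation, and their genes lie together on chromosome 19. Ifit1 (34640871 to 34650009, plus strand, mm10) had 4.57 CPM in the NEC and 317 CPM in the control library, 69.5-fold lower (52.6 to 93.8) and the lowest but one of all measured genes. Ifit3 had 1.46 CPM in the NEC and 51.03 CPM in the control library, and Ifit2 had 2.19 and 20.07 CPM. All 3 were thus called, with log2 differences of -5.84, -4.40 and -2.72. Ifit3 has a near-identical copy, Ifit3b, with which reads could be shared.

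Oligoadenylate synthetases (OAS) sense double-stranded RNA and activate RNase L, and the OAS-like proteins are their relatives. Oasl2 was at 9.22 CPM in the NEC and 151.5 CPM in the control library, 16.4-fold lower (13.5 to 20.2). Oasl1, which in mice restrains translation of Irf7, was at 4.20 and 58.8 CPM, and Oas1a, one of several similar copies, at 8.58 and 81.9 CPM. Oas2 and Oas3 were low everywhere, with 9 and 6 counts in the NEC and 37 and 42 counts in the control library. Their log2 differences were -0.87 and -1.23, so that of the 5 genes Oas2 alone was not called.

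Among the other antiviral effectors, Rtp4 (chromosome 16), a chaperone of G protein-coupled receptors, was at 1.55 CPM in the NEC and 90.9 CPM in the control library. Rsad2, which encodes viperin and makes a chain-terminating nucleotide, had 5 counts in the NEC and 405 in the control library, a 55.8-fold lower level (23.7 to 173). Its neighbour on chromosome 12, the nucleotide kinase gene Cmpk2, starts 12752 bases away on the other strand and was at 3.47 and 35.6 CPM. Bst2, which encodes tetherin, a membrane protein that holds budding virus at the cell surface, was at 6.21 and 90.5 CPM. Ifi27 was at 10.50 and 110.6 CPM. These 5 genes differed by more than 3 log2 units each, whereas Eif2ak2, the kinase PKR that halts translation on double-stranded RNA, was at 18.5 CPM in the NEC and 37.4 CPM in the control library and just missed the call on the log scale. Xaf1, a promoter of cell death, was at 8.31 and 37.8 CPM. Of the antiviral effectors above 10 CPM in both libraries, Ifi35 differed least, at 36.5 and 46.6 CPM. The Mx proteins are GTPases that trap viral particles, and Ifi44 is an antiviral gene of less certain action. Mx1 and Ifi44 had 0 counts in the NEC library, against 27 and 29 in the control library, at least 6.20-fold and 6.66-fold lower, while Mx2, with 9 and 16 counts, was too low for a difference to be detectable.

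ISG15 is a ubiquitin-like protein that is attached to other proteins by a dedicated enzyme chain. Isg15 (chromosome 4, 156199424 to 156200818, minus strand) had 5 counts in the NEC and 660 in the control library, 0.46 and 41.5 CPM, a 90.9-fold lower level (38.8 to 281). The genes of its machinery were lower with it. Uba7, its activating enzyme, was at 17.2 CPM in the NEC and 93.3 CPM in the control library, and Ube2l6, its conjugating enzyme, at 12.6 and 54.7 CPM. Of the ligases, Herc6, the main one in mice, was at 1.92 and 11.2 CPM. Usp18, which removes ISG15 and shuts down the type I receptor, was at 1.00 and 26.4 CPM. Trim25, a ligase that activates RIG-I, differed least, at 58.6 and 123 CPM. The partners Dtx3l and Parp9, a ubiquitin ligase and an ADP-ribosyltransferase-like protein that form a complex, were at 4.66 and 46.2 CPM and, for Parp9, at 8.40 and 88.2 CPM. Their gene models overlap by 682 bases on opposite strands, so part of their reads cannot be told apart. Parp14, an ADP-ribosyltransferase encoded nearby, was at 20.4 and 113 CPM, and Trim30a, a brake on inflammatory signalling in mice with close copies, at 1.19 and 19.6 CPM. All 8 members of this role were called.

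The cytoplasmic RNA sensors were lower as well, 4 of 4. Ddx60, a helicase that aids them, had 10 counts in the NEC and 881 in the control library, 60.7-fold lower (32.8 to 127). Ifih1 (MDA5) was at 4.02 and 32.4 CPM, Dhx58 (LGP2) at 6.12 and 31.8 CPM, and Ddx58 (RIG-I) at 21.6 and 76.5 CPM. Of the 3 type I transcription factor genes, 2 were called. Irf7, which drives interferon-alpha genes, was at 43.7 CPM in the NEC and 295 CPM in the control library, 6.75-fold lower (6.14 to 7.43). Irf9, the DNA-binding partner of STAT2, was at 31.2 and 109.3 CPM, and Stat2 at 116 and 186 CPM, under 2-fold.

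The interferon-gamma members split by role in this comparison. Psmb8 and Psmb9, inducible catalytic subunits of the proteasome, and Tap1, a subunit of the peptide transporter, lie within the major histocompatibility complex on chromosome 17. Their levels were 3.38, 3.84 and 6.21 CPM in the NEC library, against 29.1, 27.7 and 46.8 CPM in the control library, which is 8.62-fold (6.16 to 12.4), 7.22-fold (5.25 to 10.2) and 7.54-fold lower (5.88 to 9.81). The gene models of Psmb9 and Tap1 run head to head and overlap by 212 bases, so part of their reads may be shared. The interferon-inducible GTPases attack the membranes of vacuoles that hold intracellular pathogens. Of the 5 members of this role, all but Gbp2 differed from control by less than 2-fold. Igtp was at 8.22 CPM in the NEC and 9.56 CPM in the control library, Gbp3 at 7.85 and 10.5 CPM, Irgm1 at 5.57 and 4.47 CPM, and Iigp1 at 3.93 and 6.48 CPM. Gbp2 alone was called, at 1.37 and 5.10 CPM. The gene model of Igtp overlaps that of Irgm2, a further GTPase gene, on the same strand, so part of their reads may be shared. After a correction for GC content and gene length, the log2 differences of Gbp3, Igtp and Iigp1 were 0.10, 0.05 and 0.01, against -0.38, -0.20 and -0.60 without this step, so these 3 have no firm direction. Irf1, a transcription factor induced through GAS, was at 67.9 and 114.3 CPM. Guanylate-binding protein genes are close copies of each other, and their counts are uncertain.

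**Figure D2:**
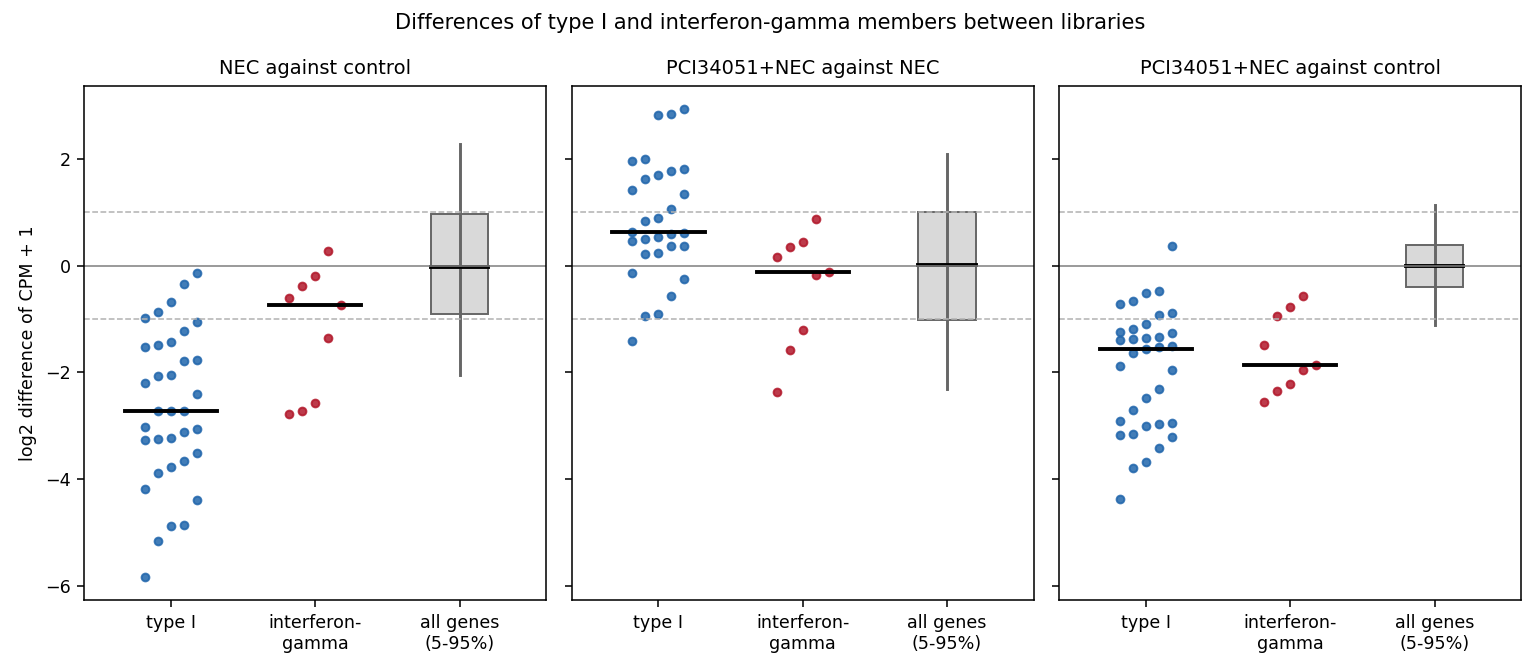
Log2 difference (CPM plus 1) of the measured type I members (blue) and interferon-gamma members (red) in 3 comparisons, each point 1 gene, with black bars for medians; grey boxes show the quartiles, and grey lines the central 90%, of all measured genes. Type I members lie lowest in NEC against control (median -2.73), and all but Trim25 lie below 0 in PCI34051+NEC against control.

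The comparison of PCI34051+NEC with NEC asks what differs with the inhibitor within the model. These 2 libraries also differed in mitochondrial share (3.73% and 32.4%) and in Eif2s3y (1134 and 0 counts). Epithelial markers (7048 and 3048 CPM) and smooth muscle markers (1013 and 10024 CPM) differed as well. With 1 library each, the inhibitor cannot be told apart from these differences, and their part was not tested. Here the members went different ways. Of 39 measured members, 12 were at least 2-fold higher in the PCI34051+NEC library and 4 at least 2-fold lower, where 25.0% of all 14410 measured genes were higher and 25.6% lower. The share of higher members was thus not far from that of all genes, and the pattern is described by its members rather than by its count. The 12 higher genes were all type I members (12 of 30 measured), and 3 of the 4 lower ones were interferon-gamma GTPases (of 9 measured), the other being Zbp1. The median log2 difference was 0.62 for type I and -0.12 for interferon-gamma members, beside 0.01 for all genes. The remaining 5 members, Oas2, Oas3, Mx1, Mx2 and Ifi44, were under 1 CPM in both libraries.

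The 12 higher members were Ifit1, Ifit2, Oasl1, Rsad2, Cmpk2, Rtp4, Trim25, Dtx3l, Parp9, Ifih1, Ddx58 and Ddx60. Rsad2 was at 9.46 CPM in the PCI34051+NEC and 0.46 CPM in the NEC library, 20.7-fold higher (8.67 to 64.8). Ddx60 was at 13.6 and 0.91 CPM, 14.9-fold higher (7.94 to 31.5), and Ifit1 at 38.4 and 4.57 CPM, 8.42-fold higher (6.30 to 11.5). Neighbouring pairs stood together: Cmpk2, beside Rsad2, was at 14.2 and 3.47 CPM, Dtx3l was at 17.4 and 4.66 CPM, and its partner Parp9 at 27.8 and 8.40 CPM. Trim25 was at 159 and 58.6 CPM and, at 27.7 CPM per kb of exon, the most abundant of the 12 in the PCI34051+NEC library. Of the 4 RNA sensor genes, 3 were among the 12, with Dhx58 the exception at 2.69 CPM in the PCI34051+NEC and 6.12 CPM in the NEC library.

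Other type I members that were also low in the NEC library were not called here. Isg15 had 16 counts in the PCI34051+NEC and 5 in the NEC library, 2.30-fold apart with an interval of 0.806 to 8.03, so that a difference was not detectable at this depth. Usp18, with 31 and 11 counts, had an interval of 0.992 to 4.47. Oasl2 was at 10.9 CPM in the PCI34051+NEC and 9.22 CPM in the NEC library, Bst2 at 7.49 and 6.21 CPM, and Ifi27 at 13.8 and 10.50 CPM. For these 3 genes the depth is sufficient to place the ratio at 1.18 (0.918 to 1.53), 1.21 (0.885 to 1.65) and 1.31 (1.04 to 1.66). The closely linked Ifit genes differed among themselves, with Ifit3 at 2.76 and 1.46 CPM, 1.89-fold higher (1.04 to 3.60), against 8.42-fold for Ifit1. Uba7 was at 16.4 CPM in the PCI34051+NEC and 17.2 CPM in the NEC library, and thus, like Isg15, not called.

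Of the 5 GTPase genes, 3 were called lower in the PCI34051+NEC library. Igtp had 12 counts in the PCI34051+NEC and 90 in the NEC library, 0.79 and 8.22 CPM, 10.4-fold lower (5.69 to 20.9). Irgm2, whose gene model overlaps that of Igtp on the same strand, was at 3.61 and 2.47 CPM and was not called. Gbp3 was at 1.97 and 7.85 CPM and Irgm1 at 1.84 and 5.57 CPM. Zbp1, a sensor of Z-form nucleic acids that triggers necroptosis, had 6 and 30 counts. Gbp2 and Iigp1 were not called, with ratios of 1.16-fold lower (0.544 to 2.43) and 1.17-fold lower (0.763 to 1.79) whose intervals span 1. These are low genes: with a pseudocount of 4 CPM in place of 1, the count of lower members was 1 in place of 4.

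The comparison of PCI34051+NEC with control asks how far the treated model was from dam-fed intestine. Of the 44 members, 34 were lower by 2-fold or more in the PCI34051+NEC library and 0 higher, where 6.55% of all 13652 measured genes were lower and 6.55% higher. The median log2 difference was -1.59, beside 0.00 for all genes, and for 34 members the counting interval lay wholly beyond 2-fold lower, as for 4.77% of all genes. The 34 called members comprised 28 of 35 type I and 6 of 9 interferon-gamma members, with medians of -1.56 and -1.86. Scaling to total counts moved the median of all genes by -0.18 and the share of lower genes among all calls to 66.5% (1256 lower, 633 higher), where TMM scaling gave equal numbers (894 each). With total counts 36 members were lower.

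Isg15 had the lowest log2 difference of all measured genes in this comparison, -4.37, with 1.05 CPM in the PCI34051+NEC and 41.5 CPM in the control library, 39.5-fold lower (24.1 to 69.5). Ifit3 (2.76 and 51.03 CPM), Oasl2 (10.9 and 151.5 CPM) and Bst2 (7.49 and 90.5 CPM) held places 2, 3 and 5 from the lowest. In all, 8 of the 20 lowest and 17 of the 100 lowest genes were members. Rtp4 was at 8.93 CPM in the PCI34051+NEC and 90.9 CPM in the control library, Usp18 at 2.04 and 26.4 CPM, and Dhx58 at 2.69 and 31.8 CPM, all 3 among the 20 lowest. Genes that stood well above the NEC level still lay under control: Ifit1 was 8.26-fold lower (7.58 to 9.01), Ddx60 4.08-fold lower (3.50 to 4.77) and Rsad2 2.69-fold lower (2.22 to 3.28). Nearest to control were Trim25, at 159 and 123 CPM, Eif2ak2, at 25.9 and 37.4 CPM, and Ifi35, at 33.2 and 46.6 CPM. Of the interferon-gamma members, Igtp was 12.1-fold lower (6.75 to 24.0) and Psmb8 5.91-fold lower (4.62 to 7.65).

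The order of the 3 libraries divides the members. Lowest in the NEC library were 31 of 44 members (70.5%, against 43.7% of all genes). For 30 of 44 (68.2%) the order was control, then PCI34051+NEC, then NEC, an order held by 20.1% of all 14718 genes at 1 CPM or more in any library. For 12 (27.3%) it was control, then NEC, then PCI34051+NEC, an order held by 7.07% of all genes. The control, PCI34051+NEC, NEC order held for 26 of 35 type I members and 4 of 9 interferon-gamma members, these 4 being Irf1, Psmb8, Psmb9 and Tap1. The control, NEC, PCI34051+NEC order held for Oas2, Mx2, Zbp1, Xaf1, Ifi35, Herc6, Dhx58, Stat2, Gbp2, Gbp3, Igtp and Iigp1. Some orders of both kinds rest on neighbours that do not differ beyond counting error. Between the PCI34051+NEC and NEC libraries the interval spans 1 for 11 of the 39 measured members. These include Gbp2, Herc6 and Iigp1 of the control, NEC, PCI34051+NEC order. Of the control, PCI34051+NEC, NEC order they include Isg15, Usp18, Oasl2, Bst2, Psmb8 and Psmb9.

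Per kilobase of exon, which allows levels to be compared roughly between genes, the ranking of the members also changed. The length is that of all annotated exons of a gene together, not of the transcripts present, so these ranks are approximate. In the PCI34051+NEC library the highest were Trim25 (27.7 CPM per kb), Irf7, Ifi35 (19.25) and Irf1 (19.23). In the NEC library they were Ifi35 (21.2), Stat2 (19.6), Irf1 (17.1) and Irf7 (11.6). In the control library they were Ifit1 (119.5), Bst2 (100.2), Irf7 (78.2) and Ifi27 (75.4). Ifit1 and Bst2 headed the control list, while Ifi35, Stat2 and Irf1 headed the NEC list, where Ifit1 and Bst2 were at 1.72 and 6.88 CPM per kb. Irf7 was among the highest genes listed in all 3 libraries.

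The inputs of the response were examined with lists of pathway genes. Interferon transcripts themselves were hardly counted: of 21 interferon genes, none reached 1 CPM in the PCI34051+NEC or control library, and only Ifnz did in the NEC library, with 12 counts. Ifnb1, Ifng, Ifnl2 and Ifnl3 had 0 counts in all 3 libraries, for which the upper limits of the 95% Poisson interval are 0.242, 0.337 and 0.232 CPM. Of the 6 receptor genes, 3 were at least 2-fold lower in NEC against control (22.9% of all genes), 4 higher in PCI34051+NEC against NEC (25.0% of all genes), and 1 higher in PCI34051+NEC against control (6.55% of all genes). That was Ifngr1, the ligand-binding chain of the interferon-gamma receptor, at 368, 101.4 and 123 CPM in the PCI34051+NEC, NEC and control libraries. Ifnlr1, the chain specific to interferon lambda, was at 127, 46.3 and 68.8 CPM, and Ifnar1, of the type I receptor, at 73.9, 49.2 and 123.9 CPM. Ifngr1 and Ifnlr1 were thus highest in the PCI34051+NEC library. So were Ifngr2 (309, 79.0 and 206 CPM) and Ifnar2, also of the type I receptor (34.6, 18.0 and 29.5 CPM). Ifnar1 and Il10rb were highest in the control library. Of the 44 members only Trim25 was highest in the PCI34051+NEC library, as were 30.4% of all genes.

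Among the signalling genes, the kinase genes Jak1 and Jak2 differed from the type I members in order. Jak1, which serves all 3 kinds of interferon receptor, was at 142 CPM in the PCI34051+NEC, 57.1 CPM in the NEC and 118 CPM in the control library. Jak2, of the interferon-gamma receptor, was at 121, 44.2 and 48.8 CPM, and both were thus highest in the PCI34051+NEC library. Stat3, Tyk2 and the adaptor Myd88 differed by less than 2-fold in all 3 comparisons. Of 14 measured upstream sensors, adaptors and kinases, 4 were lower and 4 higher in NEC against control, shares near the 22.9% and 24.2% of all genes. Mavs, the adaptor of the RNA sensors, was at 32.6, 8.49 and 64.6 CPM, in the order of the type I effectors. Tmem173 (STING), the adaptor of DNA sensing, was highest in the NEC library, at 3.35, 26.4 and 5.10 CPM, as was Irf3, a transcription factor for interferon genes, at 33.8, 130.7 and 60.7 CPM. Of the inhibitors, Socs1 was at 1.05, 1.19 and 5.29 CPM, whereas Socs3 was highest in the NEC library, at 59.7, 214 and 52.5 CPM.

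**Figure D3:**
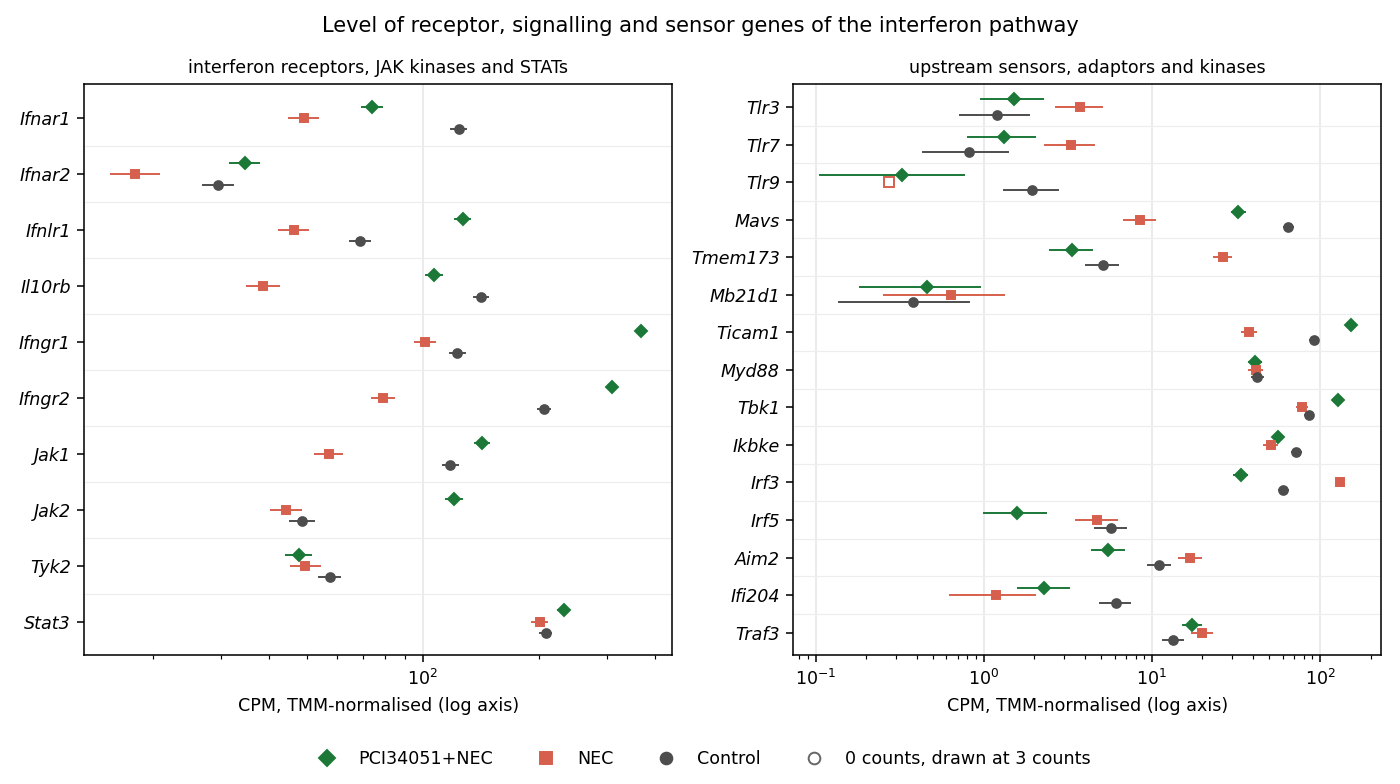
Level (CPM, log axis) of interferon receptor and JAK-STAT genes (left) and of upstream sensors, adaptors and kinases (right) in the PCI34051+NEC, NEC and control libraries, with 95% Poisson counting intervals and open symbols for 0 counts drawn at the floor. Mavs follows the order of most type I members (32.6, 8.49 and 64.6 CPM), while Ifngr1 is highest in the PCI34051+NEC library (368 CPM) and Tmem173 in the NEC library (26.4 CPM).

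Further targets outside the 44 members gave mixed counts. Of 42 measured type I targets, 21 were lower by 2-fold or more and 5 higher in NEC against control (median -0.998), beside 22.9% and 24.2% of all genes. In PCI34051+NEC against NEC 14 of 40 were higher and 10 lower, beside 25.0% and 25.6% of all genes, so that the lower share was that of any genes. In PCI34051+NEC against control 19 of 42 were lower and 1 higher (median -0.62), beside 6.55% of all genes each way. Samd9l, an antiviral restriction factor, was at 80.9, 15.98 and 172 CPM in the PCI34051+NEC, NEC and control libraries, and the RNA-editing enzyme gene Adar at 41.7, 13.1 and 64.1 CPM. The Ifitm genes, whose proteins block virus entry at membranes, went the other way: Ifitm3 was at 24.8, 181 and 26.8 CPM and Ifitm2 at 9.92, 94.4 and 8.81 CPM. Their peak in the NEC library was shared by the smooth muscle markers, which summed to 1013, 10024 and 997 CPM, and the part of these in the Ifitm levels was not tested. Of 25 measured further interferon-gamma targets, 12 were lower and 2 higher in NEC against control, beside 22.9% and 24.2% of all genes. In PCI34051+NEC against NEC 5 of 22 were higher and 3 lower, beside 25.0% and 25.6%. In PCI34051+NEC against control 12 of 24 were lower and 0 higher, beside 6.55% each way.

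Class I antigen presentation showed that genes of 1 pathway did not share 1 pattern. The MHC class I genes B2m, H2-K1, H2-D1 and H2-T23 summed to 3119 CPM in the PCI34051+NEC, 657 CPM in the NEC and 3790 CPM in the control library. B2m was 6.74-fold lower in NEC than in control (6.32 to 7.19), but only 1.35-fold lower in PCI34051+NEC (1.31 to 1.39). H2-T23 was called lower than control in both, at 117, 48.9 and 237 CPM in the PCI34051+NEC, NEC and control libraries. Psmb8 was 5.91-fold lower than control in the PCI34051+NEC library and Tap1 3.85-fold lower (3.27 to 4.55), so that these 2 lay further under control than B2m did. Tapbp, which links the transporter to MHC class I, followed B2m, at 293, 74.0 and 403 CPM. Tap2, the partner of Tap1, was at 10.9, 25.8 and 21.5 CPM. The third inducible proteasome subunit gene, Psmb10, was at 29.96, 38.8 and 45.7 CPM, under 2-fold in all comparisons. Of 14 constitutive proteasome genes, 0 were called in PCI34051+NEC against control, where 6.55% of all genes were lower and 6.55% higher. In NEC against control 4 of the 14 were lower and 1 higher, beside 22.9% and 24.2% of all genes. Psmb5 and Psmb6, whose products Psmb8 and Psmb9 replace, had 91.2, 53.6 and 106.3 CPM (Psmb5) and 93.5, 123 and 97.3 CPM (Psmb6).

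**Figure D4:**
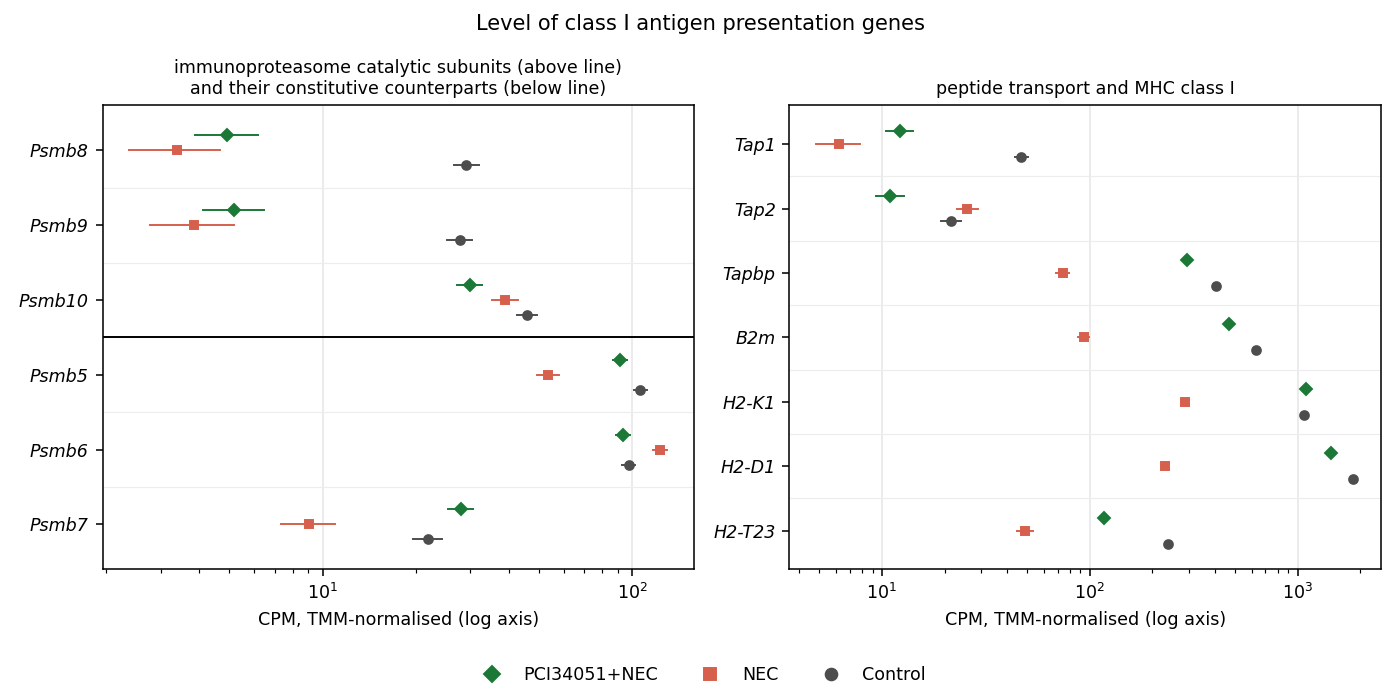
Level (CPM, log axis) of inducible and constitutive proteasome subunit genes (left) and of peptide transport and MHC class I genes (right) in the PCI34051+NEC, NEC and control libraries, with 95% Poisson counting intervals. Psmb8, Psmb9 and Tap1 are far under control in both other libraries, whereas B2m, H2-K1 and H2-D1 are far under control in the NEC library alone. H2-T23 is called lower than control in both.

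Markers of cell types differed between the libraries along with the members. Of all measured genes, 22.9% were called lower and 24.2% higher in NEC against control. In PCI34051+NEC against control the shares were 6.55% each way. All 4 leukocyte markers were at least 2-fold lower than control in both other libraries, and they summed to 18.1 CPM in the PCI34051+NEC, 36.2 CPM in the NEC and 109.7 CPM in the control library. Ptprc (CD45) was at 3.22, 0.27 and 21.5 CPM. It was the only 1 of the 4 that was higher in the PCI34051+NEC than in the NEC library, and the other 3 were lower there. Macrophage and monocyte markers summed to 196, 101 and 479 CPM, most of it Csf1r, and 3 of the 6 were called lower in PCI34051+NEC against control. In NEC against control 2 of the 6 were called lower and 1 higher, the last being Itgam, at 9.04 and 1.32 CPM. For 6 genes these 2 counts are near the shares of all genes. B cell markers summed to 0.854, 1.19 and 42.3 CPM, with all 4 called lower in both. T cell markers summed to 1.58, 1.92 and 15.0 CPM, with Cd3d at 0 counts in the PCI34051+NEC library and Cd3d, Cd3g and Cd8a at 0 in the NEC library. Called lower than in control were 5 of 5 T cell markers in PCI34051+NEC and 4 of 5 in NEC. The 4 plasmacytoid dendritic cell markers went different ways and summed to 35.01, 71.5 and 33.9 CPM. Siglech had 0, 0 and 17 counts, whereas Tcf4 was at 34.2, 68.3 and 31.6 CPM and was called higher in NEC against control. NK and innate lymphoid markers were under 1 CPM throughout. In bulk tissue, fewer cells of a type and less RNA per cell cannot be told apart, and the part of leukocytes in the level of the members was not tested.

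Epithelial and muscle markers touch the comparisons differently. Epithelial markers summed to 3048 CPM in the NEC and 6739 CPM in the control library, and smooth muscle markers to 10024 and 997 CPM. Of the 8 epithelial markers, 4 were called lower in NEC, among them Epcam at 404 and 2731 CPM, and 2 higher, Krt19 at 638 and 54.2 CPM and Krt20 at 54.8 and 15.9 CPM. Of all genes 22.9% were lower and 24.2% higher, so that the higher share was near that of all genes. The lower type I members in the NEC library stand beside that shift, and its part in them was not tested. Between the PCI34051+NEC and control libraries these markers were close, at 7048 and 6739 CPM for epithelium, 1013 and 997 CPM for smooth muscle and 108.7 and 108.6 CPM for endothelium, while the type I members summed to 738 and 2431 CPM. Within the epithelial list 2 of 8 markers were nevertheless called higher in the PCI34051+NEC library, beside 6.55% of all genes.

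**Figure D5:**
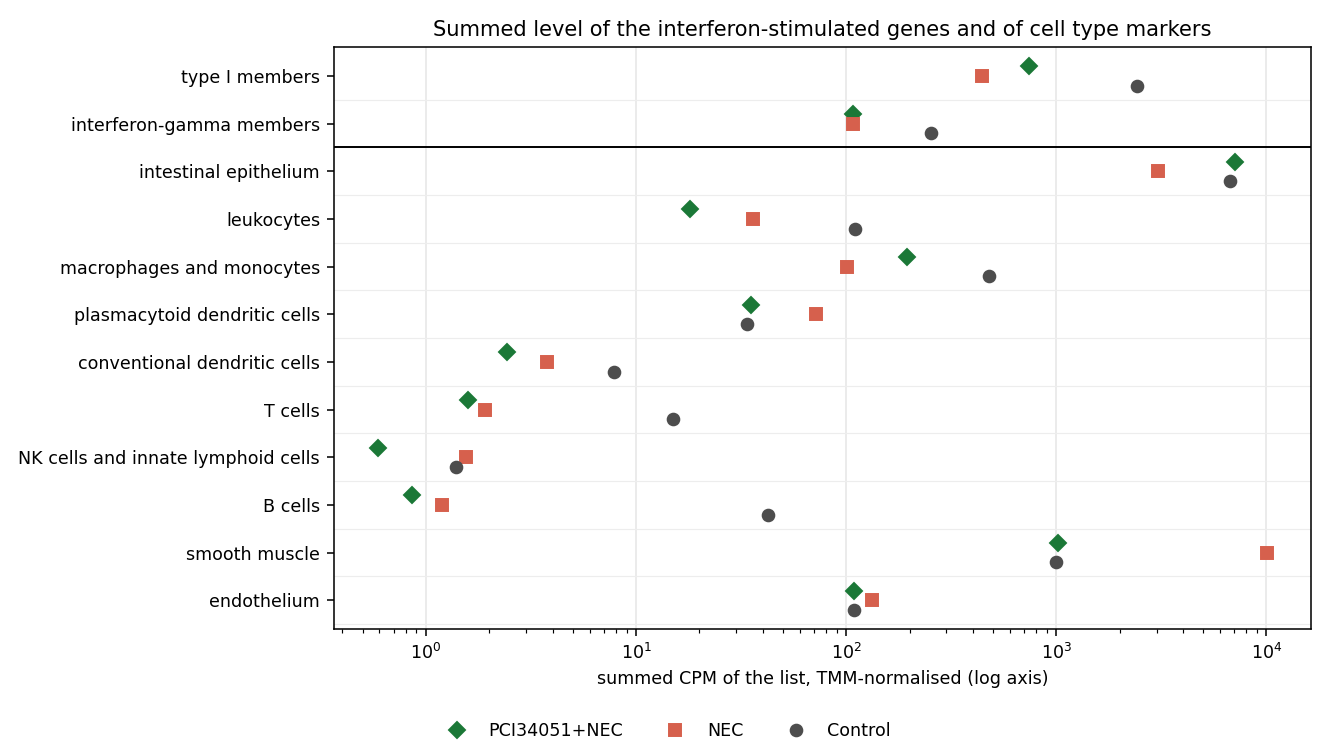
Summed level (CPM, log axis) of the type I and interferon-gamma members (above the line) and of cell type markers (below it) in the PCI34051+NEC, NEC and control libraries, 1 library each. Epithelial and smooth muscle sums are alike in the PCI34051+NEC and control libraries, where the type I members are at 738 and 2431 CPM and leukocyte markers at 18.1 and 109.7 CPM.

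The promoter letters were set beside these values as a description. The 14 members with the ISRE letters had a median log2 difference of -3.18 in NEC against control and of -2.22 in PCI34051+NEC against control. The 19 searched members without them had medians of -2.57 and -1.38. In NEC against control the range without the letters, -3.90 to -0.34, lay within that with them, -5.84 to 0.27, and Oasl2, at -3.90, had no match in this window.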

How the data were processed

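Intestinal RNA was sequenced as 150 bp read pairs (Illumina NovaSeq), per the labels' protocols. The deposited table holds raw counts by gene symbol, 1 column per library. The submitters' processing notes name mm10. The aligner, annotation, strand setting and filters were not given in the sources used here. Overlapping genes and close copies may therefore share counts. Identifiers, coordinates and exon lengths came from GENCODE M21 on that build (21926 of 21983 symbols).

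TMM factors (edgeR 4.0.16, R 4.3.3) were computed over the 3 libraries together. Log2 differences used CPM plus 1. Ratios carry exact conditional binomial (Clopper-Pearson) intervals and levels exact Poisson intervals, at 95%. Reads were counted without molecular identifiers, so these intervals and the floors cover counting error only. Promoters came from a RefSeq table (GRCm38.p6). The code was tested on simulated data.

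The 44 members, their division, the other lists and the alternatives were chosen with earlier results of these data known. The rule for named genes allowed all members and, of each further list, genes at 5 CPM or more. Of the further lists not every gene of large difference was described, Apol9a and Oas1g being among those left out. Low markers and interferon genes are given as checks. Libraries were also scaled by DESeq2 1.42.0 size factors, by total counts, and by TMM leaving out mitochondrially encoded genes with the 50 most abundant ones. Other settings were a pseudocount of 0.25 or 4, the filter raised to 5 CPM or dropped, and thinning to 10650638 counts. Further settings were a threshold of 1.5-fold, an interval beyond 2-fold, and a correction for GC content and length (30 bins, values for 99.7% of genes). Python 3.11.15 was used with scipy 1.17.1.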

Additional observations from a re-analysis of the deposited data

How the results depend on the processing

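The counts of members at least 2-fold lower in NEC against control and in PCI34051+NEC against control, and of type I members at least 2-fold higher in PCI34051+NEC against NEC, were within 1.5 times the main count under every alternative run. No value past 2-fold changed sign. The number of type I members lower in PCI34051+NEC against NEC, 1 by the main settings, was 3 with total counts, 3 with a pseudocount of 0.25, 0 with a pseudocount of 4, 0 at a minimum of 5 CPM, 3 at 1.5-fold and 2 after correction for GC content and length. With a pseudocount of 4 the lower members in that comparison numbered 1 in all and 1 among the interferon-gamma members. The count of interferon-gamma members higher there, 0, was 1 at 1.5-fold and 1 after that correction. In NEC against control the median of all members was -2.82 with a pseudocount of 0.25 and -1.99 with 4, that of type I members -2.19 with 4, and that of interferon-gamma members -0.51 after that correction. In PCI34051+NEC against control the median of all members was -1.42 and that of interferon-gamma members -1.28 with a pseudocount of 4, and that of type I members -1.84 with 0.25 and -1.92 at 5 CPM. The stricter letters TTCCNGGAA were found in 2 members, against 7 with TTCNNNGAA, and the shorter ISRE core in 16, against 14. Setting counts of 0 to the floor left the medians of the members as they were. No paired analysis was possible because each group is 1 library. Leaving out a library was not possible for the same reason, and no spread between animals can be given. Depth limits the members with few counts in the NEC library, such as Isg15 (5 counts), Rsad2 (5) and Ddx60 (10), whose ratios have wide intervals.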
